A study of Homo sapiens with 20 samples.

Results

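The 10 BCL2 family genes described here were followed through 5 treatments of a neuroblastoma cell line. They were chosen by symbol from a list of the family's main genes, and each of the 10 matched 1 row of a count table of 58787 genes. The set holds 5 BH3-only genes (BBC3, PMAIP1, HRK, BCL2L11 and BID), the 2 effector genes BAX and BAK1, and the 3 pro-survival genes BCL2, BCL2L1 and MCL1. The BCL2 family decides whether mitochondria release the proteins that start the caspase cascade. Pro-survival members hold the pore-forming effectors BAX and BAK in check, and BH3-only proteins, made in response to stress or damage, bind the pro-survival proteins or engage the effectors directly. In neuroblastoma, an embryonal tumour of the sympathetic lineage, BCL2 and MCL1 are known as survival factors and PUMA and NOXA (the products of BBC3 and PMAIP1) as proteins made in response to DNA damage.

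The cells were IMR-32, an established human neuroblastoma line in which the oncogene MYCN is amplified. There were 20 libraries in 5 groups of 4, each taken after 24 h. The control group received the vehicle DMSO. Dyngo-4a was given alone at 1 µM, called the low dose here, and alone at 2.26 µM, called the high dose. Another group received 2 nM prexasertib, and the last, called the combination, received Dyngo-4a together with prexasertib. Prexasertib inhibits the checkpoint kinase CHK1, and Dyngo-4a is known as a dynamin inhibitor. The series title names inhibition of CHK1 and of the nuclease MUS81. The sources used here do not give the doses within the combination, so any comparison of the combination with a single agent may also be one of dose. The labels do not say whether replicate libraries are separate cultures, and the p-values then measure only the spread between these libraries, which may be technical.

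Each library was a 3′ mRNA library with 3960885 to 6537843 counts. Levels are given in CPM, counts of tested genes scaled to a common total with TMM factors, and 3 counts corresponded to 0.470 to 0.752 CPM, the level that a count of 0 allows (counting error only). The 10 genes were among 13729 that passed the low-count filter, and their counts ran from 17 (BAK1, the lowest library) to 1523 (MCL1, the highest). A 3′ count does not separate isoforms, so the long and short forms of BIM, BCL-X and MCL1 were measured as sums. Levels were compared within a gene and not between genes. Of 12 markers of adrenergic neuroblasts 11 were tested, with GATA3 at a median of 1116 CPM, while TH lay between 0 and 3.28 CPM. Of the markers of other cell types, PRRX1 (mesenchymal), SOX10 (Schwann), KRT18 (epithelial) and CD3E (T cell) had no count in any library, and the summed level of 10 mesenchymal markers ran from 36.7 to 65.9 CPM over all groups. In bulk RNA, fewer cells of a type and less RNA per cell cannot be told apart.

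The stretches upstream of the 4 genes that rose in the high dose or the combination are shown because the changes described here are changes of mRNA level, and these are the sequences next to the starts. They come from RefSeq on GRCh38.p14, which held 9 of the 10 genes. Each line runs 5′ to 3′ on the strand of the gene, and stops where an exon of the gene begins in GENCODE 29. Capitals mark matches, on either strand, to motifs that fewer than 10% of 35116 promoter windows of 250 bases hold. The windows shown are chr12:116881442-116881691 for HRK (minus strand), chr19:47232767-47232917 for BBC3 (minus strand), chr18:59899746-59899947 for PMAIP1 (plus strand) and chr19:48954625-48954814 for BAX (plus strand).
HRK: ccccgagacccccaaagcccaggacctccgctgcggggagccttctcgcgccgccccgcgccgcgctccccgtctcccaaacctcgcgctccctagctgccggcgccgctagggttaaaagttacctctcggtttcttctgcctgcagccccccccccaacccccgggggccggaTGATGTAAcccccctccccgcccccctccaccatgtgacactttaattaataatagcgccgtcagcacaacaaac
BBC3: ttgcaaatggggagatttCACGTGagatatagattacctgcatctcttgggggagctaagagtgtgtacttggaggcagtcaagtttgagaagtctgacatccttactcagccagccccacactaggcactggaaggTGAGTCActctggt
PMAIP1: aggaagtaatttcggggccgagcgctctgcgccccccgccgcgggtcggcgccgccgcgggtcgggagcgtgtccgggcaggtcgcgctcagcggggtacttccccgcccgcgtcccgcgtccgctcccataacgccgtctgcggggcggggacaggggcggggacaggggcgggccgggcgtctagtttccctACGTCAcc
BAX: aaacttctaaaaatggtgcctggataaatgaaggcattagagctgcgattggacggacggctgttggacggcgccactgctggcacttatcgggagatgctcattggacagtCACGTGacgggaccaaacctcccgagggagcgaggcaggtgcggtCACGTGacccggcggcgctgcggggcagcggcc

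The motifs were searched in the 250 bases before the RefSeq start, after the sequences had been seen. The HRK window held 1 match to TGATGNAA, the composite element of C/EBP and ATF factors, at position -75 from the start. That element was found in 3.14% of promoter windows and in none of the other windows of the set. In the BBC3 window lay the E-box CACGTG (held by 6.34% of windows) at -232 and the AP-1 element TGANTCA (6.57%) at -113. BID, which is not shown, also had the E-box, at -106 and -47 from separate starts whose windows overlap. PMAIP1 had 1 match to the CRE core TGACGT (7.10%), shown as its reverse complement, at -56, and 4 GC boxes of the letters GGGCGG (42.6%). BAX had 4 E-boxes, at -138, -93, -45 and -14, of which the first 2 lie in the stretch shown. At least 4 were found in 5 of 35116 windows (0.0142%), the BAX window among them. That cutoff was the count seen in BAX. The CCAAT box CCAAT and the TATA box TATAAA stood in 32.0% and 10.7% of windows. The motifs can overlap one another. A match is a string of letters and not a bound site, and a missing match says only that the letters are not in this window.

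The BH3-only genes BBC3, PMAIP1 and HRK rose with the high dose and with the combination, and BAX rose and BID fell in the combination. These calls are from the main fit, of all 20 libraries with no replicate terms. In it neither single agent at 1 µM Dyngo-4a or 2 nM prexasertib moved a member past the threshold. BCL2, BCL2L1, MCL1, BCL2L11 and BAK1 passed it there in none of the 9 comparisons made. A fit with a replicate block called BAX in the low dose (adjusted p = 0.00868) and BBC3 with prexasertib (adjusted p = 0.0178). The threshold was an adjusted p of 0.05 in edgeR's quasi-likelihood test, Benjamini-Hochberg adjusted over all tested genes. Values after ± are SD beside levels (n = 4) and SE beside log2 fold changes.

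**Figure D1:**
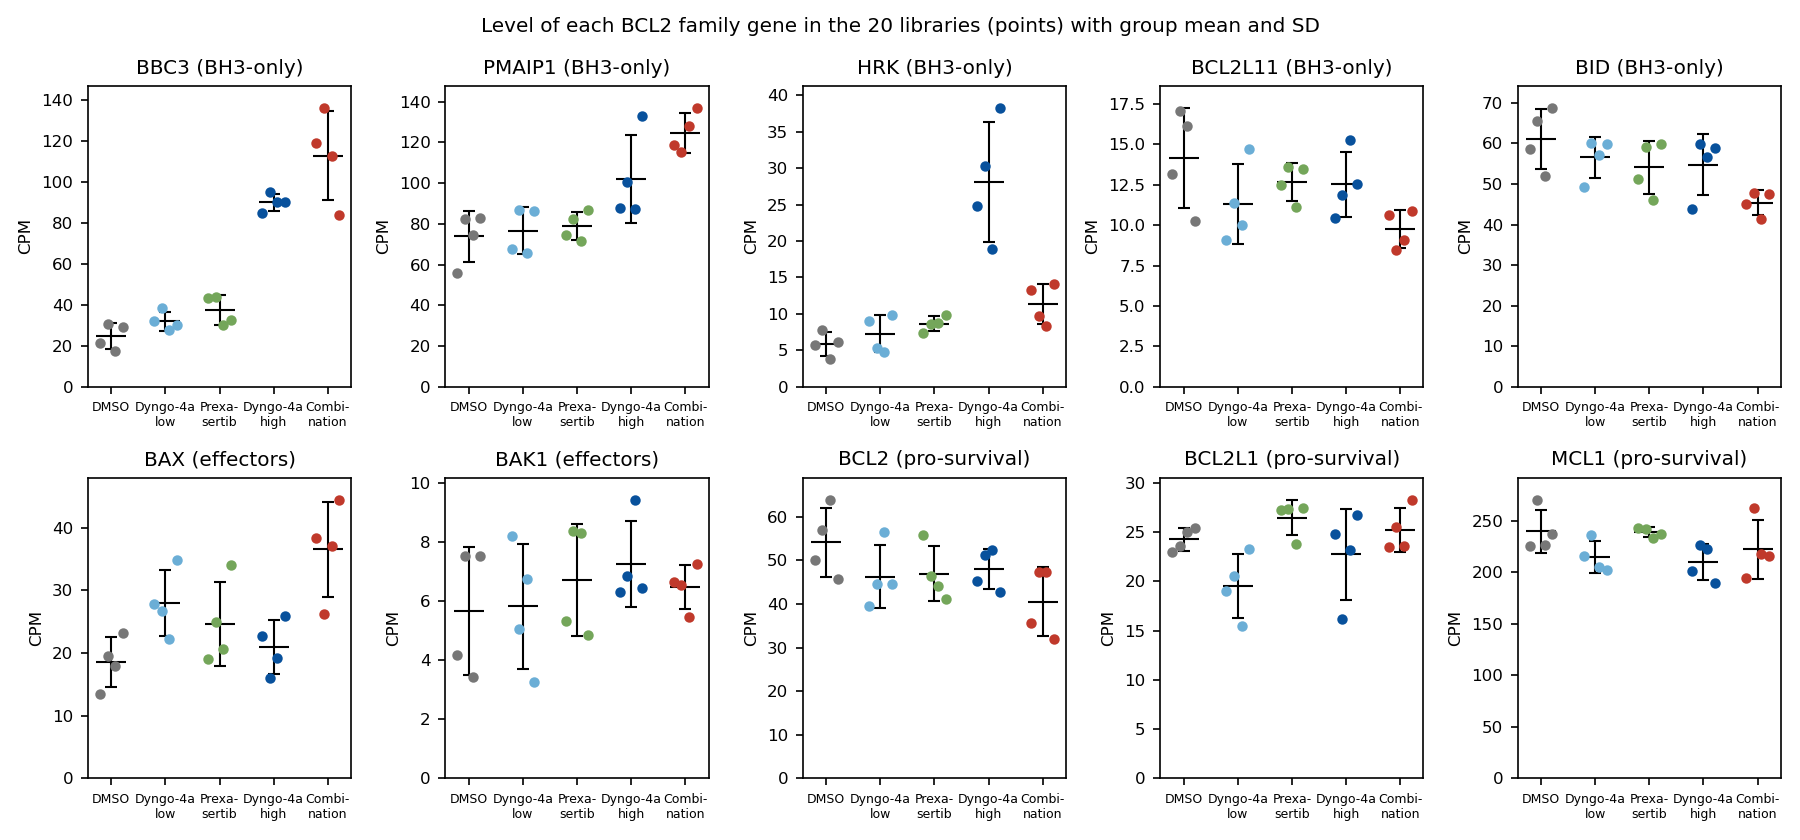
Level of the 10 genes in CPM (vertical axes, each from 0) in the 4 libraries of each of 5 groups (points), with the group mean and SD (black). The high-dose and combination points of BBC3 lie above every point of the other groups, HRK stands highest in the high dose, and MCL1 and BCL2 overlap between neighbouring groups.

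BBC3 (chromosome 19, 47220822 to 47232766, minus strand, GRCh38) encodes PUMA, a BH3-only protein that binds every main pro-survival member. In DMSO its 4 libraries measured 21.3, 30.6, 17.5 and 29.3 CPM. With the high dose they measured 84.6, 95.1, 90.0 and 90.1 CPM. In the combination they measured 119, 136, 113 and 83.6 CPM. The high-dose and combination libraries thus lay above every library of the other groups and overlapped each other. Against DMSO BBC3 rose by 1.87 ± 0.16 (log2) in the high dose, 3.65-fold (95% interval of the log2 value 1.55 to 2.19, adjusted p = 2.94e-10), and by 2.19 ± 0.16 in the combination, 4.57-fold (1.87 to 2.51, adjusted p = 1.36e-11). The low-dose libraries (31.9, 38.3, 27.7 and 29.99 CPM) and the prexasertib libraries (43.2, 43.8, 29.9 and 32.4 CPM) overlapped DMSO at its upper end. The low dose gave 0.38 ± 0.17 (adjusted p = 0.569). Prexasertib gave 0.60 ± 0.16 (adjusted p = 0.684). A fit that adds the replicate number as a block gave 0.58 and called BBC3 (adjusted p = 0.0178). The mean levels ran in the order DMSO, low dose, prexasertib, high dose, combination, and only prexasertib and the high dose, as neighbours in it, did not overlap.

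PMAIP1 (chromosome 18, 59899948 to 59904306, plus strand) encodes NOXA, a BH3-only protein that binds chiefly MCL1. Its DMSO libraries measured 56.0, 82.2, 74.8 and 82.9 CPM. The high-dose libraries measured 87.8, 100.5, 87.1 and 133 CPM, and the combination libraries 119, 115, 128 and 137 CPM. Both treated groups lay above DMSO without overlap, and they overlapped each other through high-dose replicate 4. PMAIP1 rose by 0.47 ± 0.13 with the high dose (adjusted p = 0.00635) and by 0.75 ± 0.13 with the combination (adjusted p = 0.000117). The high-dose call rested on replicate 4, without which it was 0.32 (adjusted p = 0.0598). In the low dose PMAIP1 measured 76.6 ± 11.5 CPM and with prexasertib 78.8 ± 6.96 CPM, beside 73.97 ± 12.6 in DMSO, with log2 fold changes of 0.06 and 0.09 (adjusted p = 0.965 and 1.00). Its group means had the same order as those of BBC3, again with no overlap only between prexasertib and the high dose.

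HRK (chromosome 12, 116856144 to 116881441, minus strand) encodes Harakiri, a BH3-only protein known from neurons deprived of growth factor. It was low in DMSO, at 5.71, 7.77, 3.83 and 6.08 CPM. The high dose gave 24.8, 30.3, 18.9 and 38.2 CPM. The combination gave 13.3, 9.65, 8.40 and 14.1 CPM. Every high-dose library was above every combination library, and every combination library was above every DMSO library. HRK rose by 2.27 ± 0.24 in the high dose, 4.82-fold (95% interval of the log2 value 1.79 to 2.75, adjusted p = 4.51e-09), and by 0.97 ± 0.25 in the combination (adjusted p = 0.0135). The combination call was lost without DMSO replicate 3 or combination replicate 1 or 4 (adjusted p up to 0.0644). The low dose (7.26 ± 2.55 CPM) and prexasertib (8.63 ± 1.02 CPM) gave log2 fold changes of 0.32 ± 0.27 and 0.58 ± 0.26 (adjusted p = 0.854 and 1.00). HRK was thus the only one of the 3 whose mean was highest in the high dose and not in the combination.

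The other BH3-only genes did not rise. BID (chromosome 22, 17734138 to 17774770, minus strand) encodes the protein that caspase-8 cleaves to link death receptors to mitochondria. It measured 58.6, 65.4, 52.0 and 68.7 CPM in DMSO and 45.1, 47.9, 41.3 and 47.5 CPM in the combination, 4 libraries that lay below the 4 of DMSO. BID fell by 0.43 ± 0.12 in the combination (adjusted p = 0.0188), a call that was lost without DMSO replicate 2 or 4 or combination replicate 1 or 3 (adjusted p up to 0.0852). In the high dose it measured 54.8 ± 7.48 CPM (-0.16 ± 0.11, adjusted p = 0.338). BCL2L11 (chromosome 2, 111119378 to 111168447, plus strand) encodes BIM, an activator that binds all main pro-survival proteins. Its libraries ran from 10.2 to 17.0 CPM in DMSO, 10.5 to 15.2 in the high dose and 8.44 to 10.9 in the combination. The combination gave -0.52 ± 0.19 and was not called (adjusted p = 0.108; 0.0479 without DMSO replicate 4).

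Of the effectors, which open the outer mitochondrial membrane, BAX rose in the combination. BAX (chromosome 19, 48954815 to 48961798, plus strand) measured 13.5, 19.6, 17.9 and 23.2 CPM in DMSO. In the combination it measured 38.4, 26.2, 37.0 and 44.4 CPM. The high-dose libraries, at 22.7, 16.03, 19.2 and 25.8 CPM, overlapped DMSO and lay below every combination library. BAX rose by 0.97 ± 0.19 in the combination, 1.96-fold (adjusted p = 0.00112), and gave 0.17 ± 0.20 in the high dose (95% interval -0.23 to 0.57, adjusted p = 0.580). The low dose (27.8, 26.7, 22.2 and 34.9 CPM) gave 0.59 ± 0.19 and was not called (adjusted p = 0.372). With the replicate number as a block the low-dose value was 0.60 and was called (adjusted p = 0.00868). Prexasertib gave 0.42 ± 0.19 (19.0, 25.0, 20.6 and 34.0 CPM, adjusted p = 1.00). BAK1 (chromosome 6, 33572547 to 33580293, minus strand) had low counts, at 17 to 52 per library. Its group means lay between 5.66 and 7.26 CPM, and its log2 fold changes against DMSO between 0.02 and 0.36, with SE of 0.28 to 0.29.

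The pro-survival genes passed no test in the main fit. MCL1 (chromosome 1, 150574551 to 150579738, minus strand), whose short-lived protein is the main target of NOXA, measured 240 ± 20.9 CPM in DMSO, 210 ± 17.3 with the high dose and 223 ± 28.5 with the combination. Its log2 fold changes were -0.19 ± 0.09 in the high dose (95% interval -0.38 to -0.01, adjusted p = 0.123) and -0.11 ± 0.09 in the combination (-0.29 to 0.08). BCL2 (chromosome 18, 63123346 to 63320128, minus strand), the founding member of the family, measured 50.1, 56.9, 63.9 and 45.8 CPM in DMSO and 35.5, 47.4, 47.2 and 31.9 CPM in the combination. These groups overlapped, and the difference of -0.42 ± 0.13 missed the threshold (adjusted p = 0.0570). It passed without DMSO replicate 4 or combination replicate 2 or 3 (adjusted p down to 0.0305) and without the low-count filter (adjusted p = 0.0216). BCL2L1 (chromosome 20, 31664452 to 31723989, minus strand) encodes BCL-XL, and lay between 15.5 and 28.3 CPM over the 20 libraries. Its intervals against DMSO were -0.39 to 0.20 in the high dose and -0.24 to 0.35 in the combination.

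Of the 10 genes, 3 share their 3′ end with another gene in GENCODE 29. These are BCL2L11 with the antisense MIR4435-2HG (64 counts over the 20 libraries), BAK1 with the antisense GGNBP1 (11 counts) and MCL1 with ADAMTSL4-AS1 on the same strand (88 counts). The sources used here do not give the strand setting of the counting, so reads of such partners cannot be told apart. BAK1 also has processed pseudogenes, and how reads that match both were assigned is not given.

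**Figure D2:**
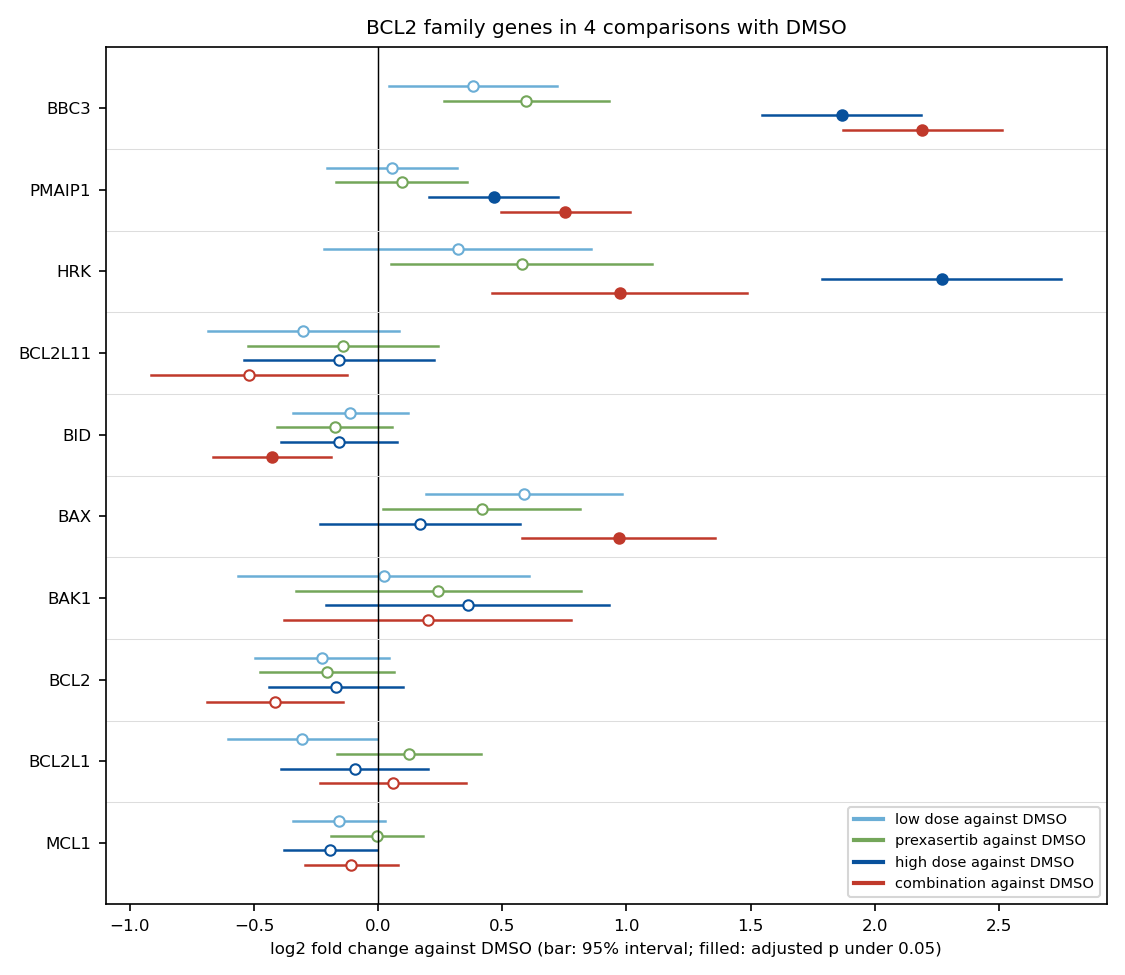
Log2 fold change against DMSO (horizontal axis) of the 10 genes in the low dose, prexasertib, the high dose and the combination (colours), with 95% intervals as bars and filled points for an adjusted p under 0.05. Filled points stand at BBC3, PMAIP1 and HRK in the high dose and at these with BAX and BID in the combination, and none at the 3 pro-survival genes.

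Counted over the set, 3 of 10 genes rose and 0 fell in the high dose against DMSO. Among all tested genes 25.2% were called there, 12.5% higher and 12.7% lower, so the share of the set is near that of any gene. In the combination 4 of 10 rose and 1 fell, beside 6.3% of all tested genes (3.47% higher and 2.83% lower). The median log2 fold change of the 10 genes was 0.04 for the high dose and 0.13 for the combination, and that of all tested genes was 0.00 in both. By role, the BH3-only genes had medians of 0.47 and 0.75, the effectors 0.26 and 0.58, and the pro-survival genes -0.17 and -0.11. In the low dose 0 of 10 were called (3 at an unadjusted p under 0.05; 0.262% of all tested genes called), and in prexasertib 0 of 10 (3 at an unadjusted p under 0.05). Prexasertib called 0 of all tested genes (0%), with 518 at an unadjusted p under 0.05. DESeq2 called 6 there and limma-voom 0, and no member among them. The fit with a replicate block called 23 and that without a low-count filter 12. BBC3 was among both (adjusted p = 0.0178 and 0.0161 in edgeR's quasi-likelihood test). These comparisons share the DMSO libraries. The nuclear RNA MALAT1 moved with the same groups as BBC3, with log2 fold changes of 1.13 (high dose, adjusted p = 0.00142) and 0.80 (combination, adjusted p = 0.0439). Its share of the counts was 1.35% in DMSO, 2.96% with the high dose and 2.33% with the combination. Its part in these results was not tested.

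The high dose was then set against the low dose, both of Dyngo-4a alone. BBC3 was higher by 1.48 ± 0.15 (2.80-fold, adjusted p = 2.92e-08) and HRK by 1.95 ± 0.23 (3.86-fold, adjusted p = 1.03e-07). PMAIP1 was higher by 0.41 ± 0.13 (adjusted p = 0.0196), a call that was lost without low-dose replicate 1 or 3 or high-dose replicate 4 (adjusted p up to 0.133). BAX gave -0.42 ± 0.19 and was not called (adjusted p = 0.123). It was lower when the replicate number was a block (-0.42, adjusted p = 0.0153). The 3 calls among 10 stand beside 20.2% of all tested genes.

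Against the high dose the combination differed in 2 of the 10 genes, beside 20.5% of all tested genes. HRK was lower, at -1.30 ± 0.22 (0.407-fold, adjusted p = 3.91e-05). BAX was higher by 0.80 ± 0.19 (1.74-fold, adjusted p = 0.00238). Neither pair of groups overlapped between libraries. BBC3 gave 0.32 ± 0.14 (adjusted p = 0.104), PMAIP1 0.29 ± 0.13 (adjusted p = 0.104) and BID -0.27 ± 0.12 (adjusted p = 0.101). With the replicate number as a block these were called, at 0.31 (adjusted p = 0.0144), 0.30 (adjusted p = 0.00422) and -0.27 (adjusted p = 0.0274), which makes 5 of 10. That fit called 4002 of all 13729 tested genes here, beside 2816 without the block.

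Against the other single agents the combination differed in BBC3 and PMAIP1. Compared with prexasertib, BBC3 was higher by 1.60 ± 0.15 (3.02-fold, adjusted p = 8.99e-09) and PMAIP1 by 0.66 ± 0.13 (adjusted p = 0.00109), beside 3.44% of all tested genes called. BAX gave 0.55 ± 0.18 (adjusted p = 0.0947), and 0.56 in the fit with the replicate block (adjusted p = 0.00218). Compared with the low dose, BBC3 was higher by 1.81 ± 0.15 (adjusted p = 8.24e-10) and PMAIP1 by 0.70 ± 0.13 (adjusted p = 0.000407), beside 3.85%. HRK gave 0.65 ± 0.25 (adjusted p = 0.157) and BID -0.32 ± 0.12 (adjusted p = 0.149). With the replicate number as a block these became 0.66 and -0.31 (adjusted p = 0.0278 for each), which makes 4 of 10. That fit called 1149 of all 13729 tested genes against the low dose, beside 528 without the block.

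The combination was also set against the sum of the low dose and prexasertib on the log2 scale, which takes the combination to hold these same doses. BBC3 was the 1 gene of the 10 past the threshold, beside 0.284% of all tested genes (39 of 13729). The low dose (0.38) and prexasertib (0.60) summed to 0.98 for BBC3, and the combination stood at 2.19, a difference of 1.21 ± 0.22 (95% interval 0.76 to 1.67, adjusted p = 0.00474, and up to 0.0237 over 24 fits with another scaling, filter, tool or block or with a library left out). PMAIP1 summed to 0.15 and stood at 0.75. Its difference of 0.60 ± 0.18 was not called (95% interval 0.24 to 0.97, adjusted p = 0.260). For BAX the sum of 1.00 and the combination at 0.97 differed by -0.04 ± 0.27 (95% interval -0.58 to 0.51). For HRK the sum of 0.90 and the combination at 0.97 differed by 0.07 ± 0.36. The differences of the remaining 6 genes lay between -0.14 (BID) and 0.24 (BCL2L1). In a fit of replicates 2 and 4 only, which was added with the values known, BBC3 gave 1.33 and was not called (adjusted p = 0.226).

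**Figure D3:**
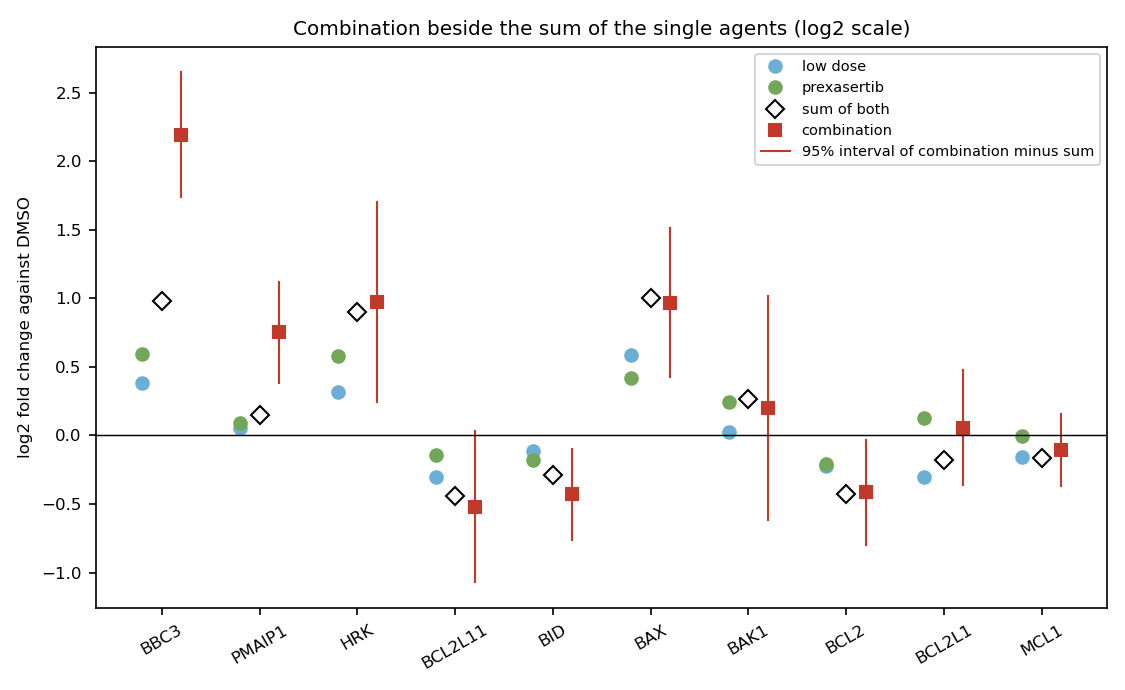
Log2 fold change against DMSO (vertical axis) of each gene in the low dose, prexasertib and the combination, with the sum of the single agents as a diamond; the bar around the combination is the 95% interval of its difference from the sum. The bar of BBC3 runs from 0.76 to 1.67 above its diamond, and the bars of BAX and HRK include theirs.

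Transcription factors with known roles at these promoters were measured as 1 list of 12 genes. In the high dose 8 rose, 2 fell and 2 were not called, with a median of 0.66. Among all tested genes 12.5% rose and 12.7% fell there. In the combination 4 rose and 2 fell, with a median of 0.03, beside 3.47% and 2.83% of all tested genes. DDIT3, which encodes CHOP, rose by 2.01 ± 0.15 in the high dose (from 17.9 ± 1.91 to 72.0 ± 15.8 CPM, adjusted p = 2.03e-12) and by 0.89 ± 0.15 in the combination (33.3 ± 4.46 CPM, adjusted p = 0.000116). ATF4, the factor of the integrated stress response, rose by 0.95 ± 0.10 in the high dose (adjusted p = 6.79e-09) and gave 0.05 ± 0.10 in the combination (adjusted p = 0.848). Against the high dose, the combination was lower in ATF4 (-0.90 ± 0.10, adjusted p = 4.07e-08) and DDIT3 (-1.12 ± 0.14, adjusted p = 2.26e-07). In that comparison 7 of the 12 factors were lower and 1 was higher, beside 20.5% of all tested genes called.

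Other factors were raised in both treatments. JUN, a subunit of AP-1, rose by 1.07 ± 0.15 in the high dose (adjusted p = 6.68e-06) and by 1.19 ± 0.15 in the combination (adjusted p = 3.71e-06). EGR1, an immediate early factor, rose by 1.47 ± 0.25 (adjusted p = 3.05e-05) and by 2.44 ± 0.24 (adjusted p = 1.60e-09), and STAT3 rose by 0.31 and 0.54. FOXO3, known to act on BBC3 and BCL2L11, rose by 0.74 ± 0.11 in the high dose (adjusted p = 3.34e-06) and gave 0.01 in the combination. MYCN fell by 0.48 and 0.44 on the log2 scale, and E2F1 fell by 0.25 and 0.60.

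**Figure D4:**
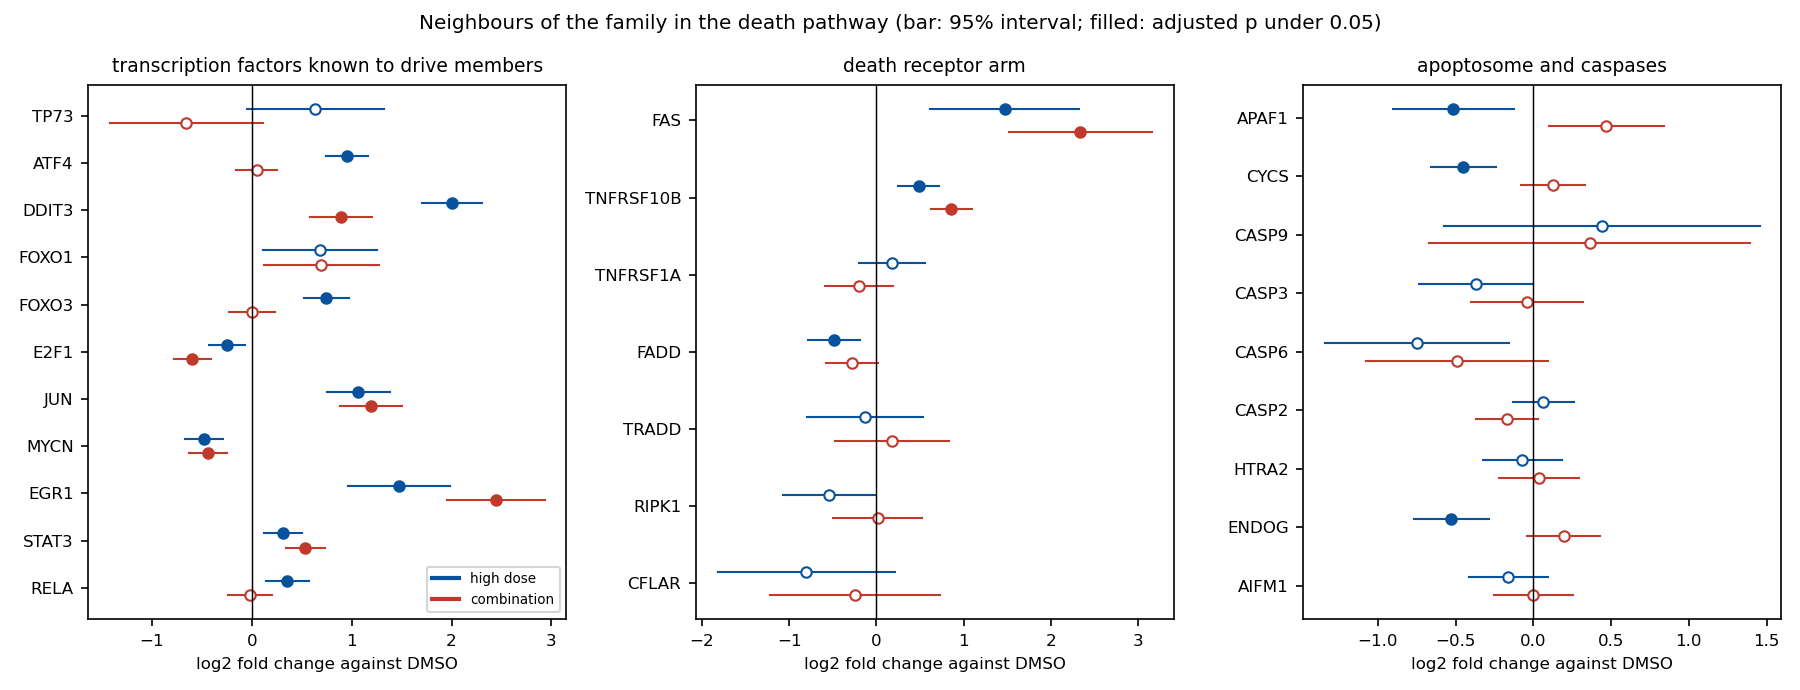
Log2 fold change against DMSO (horizontal axes) of the reported transcription factors with known roles at these genes, of the death receptor arm and of the apoptosome and caspases, in the high dose and the combination, with 95% intervals as bars and filled points for an adjusted p under 0.05. ATF4 and FOXO3 are filled in the high dose and open near 0 in the combination, while FAS and TNFRSF10B are filled in both.

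In the rest of the death pathway, 62 of 74 listed genes were tested, the transcription factors included. Of the 7 tested genes of the death receptor arm, 2 rose in both treatments. The share of all tested genes that rose was 12.5% for the high dose and 3.47% for the combination. TNFRSF10B, the TRAIL receptor DR5, rose from 33.0 ± 3.97 CPM to 46.2 ± 4.26 in the high dose (0.49 ± 0.12, adjusted p = 0.00184) and to 59.8 ± 3.91 in the combination (0.86 ± 0.12, adjusted p = 1.62e-06). FAS was scarce, at 1.25 ± 0.66 CPM in DMSO, and rose by 1.47 ± 0.42 (adjusted p = 0.00895) and by 2.34 ± 0.41 (adjusted p = 0.000121). FADD, their adaptor, fell by 0.48 in the high dose (adjusted p = 0.0133).

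Downstream of the mitochondria, 4 of 10 tested genes of the apoptosome and caspase list fell in the high dose, where 12.7% of all tested genes fell. In the combination 0 of 10 passed (1 at an unadjusted p under 0.05), beside 6.3% of all tested genes called. APAF1, the scaffold of the apoptosome, fell by 0.52 ± 0.19 in the high dose (adjusted p = 0.0445). It gave 0.47 ± 0.18 in the combination (adjusted p = 0.124), and the combination was above the high dose by 0.98 ± 0.19 (adjusted p = 0.000186). Cytochrome c (CYCS) fell by 0.45 in the high dose and ENDOG by 0.53. Of the 9 partners of BAX and BAK, 3 fell in the high dose, VDAC1 by 0.49, VDAC3 by 0.32 and TMBIM6 by 0.27, and 0 passed in the combination (1 at an unadjusted p under 0.05). CYCS has many processed pseudogenes, as does BNIP3, and their reads may be shared.

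Among relatives of the 10 genes, BNIP3, a BH3-like gene of mitophagy, rose by 0.44 ± 0.10 with the high dose (adjusted p = 0.00128) and by 0.61 ± 0.10 with the combination (adjusted p = 7.93e-05), and its paralogue BNIP3L rose in the high dose by 0.40. BCL2L2, which encodes the pro-survival protein BCL-w, rose by 0.74 ± 0.21 in the high dose (from 9.82 ± 2.54 to 16.4 ± 0.73 CPM, adjusted p = 0.00885). It gave 0.08 in the combination and was lower there than in the high dose (-0.66 ± 0.21, adjusted p = 0.0231). BCL2L2 shares exons with a read-through transcript into its neighbour PABPN1, so its reads are uncertain. Of the inhibitor of apoptosis genes, 0 of 4 passed in the high dose (1 at an unadjusted p under 0.05), beside 25.2% of all tested genes. BIRC5, the gene of survivin, rose by 0.34 ± 0.08 in the combination (adjusted p = 0.00844). Of 10 genes that control MCL1 and BIM after transcription, FBXW7, part of a ubiquitin ligase of MCL1, rose by 0.85 ± 0.09 in the high dose and by 0.87 ± 0.09 in the combination (adjusted p = 9.85e-09 and 1.11e-08). MARCHF5 rose by 0.34 in the high dose.

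The genes most like BBC3, PMAIP1 and HRK were sought among 9811 tested genes whose mean log2 CPM was 3 or more, by Pearson's r of log2 CPM over the 20 libraries. The libraries share groups and depth, so r is a description. For BBC3 they were STK17A (0.953), ATF3 (0.951) and UBALD2 (0.949). STK17A rose by 1.67 in the high dose and by 2.09 in the combination, and ATF3, a stress-induced factor, by 1.99 and 1.90. For PMAIP1 they were CIRBP (0.927), CDKN1C (0.912) and CCNG1 (0.903), of which CDKN1C, a cyclin-dependent kinase inhibitor, rose by 0.46 and 0.73. For HRK they included SARS1 (0.922) and GARS1 (0.912). SARS1 and GARS1, both tRNA synthetase genes, rose by 0.61 and 0.62 in the high dose, and gave 0.18 and 0.10 in the combination (adjusted p = 0.263 and 0.649).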

How the data were processed

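The samples were 20 QuantSeq 3′ mRNA libraries with molecular barcodes, 5 groups of 4 taken from the labels. The deposited values are raw counts per Ensembl gene, not normalised, per the labels. The submitters' processing notes name FastQC 0.11.7, STAR 2.7.2b, edgeR 3.36.0, limma 3.50.3 and the build GRCh38. The sources used here do not give the counter, annotation, strand setting or barcode collapsing; uncollapsed copies would make counting intervals too narrow.

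Symbols came from a gene name table (58434 of 58787 identifiers matched) and coordinates from GENCODE 29 (58515 matched). Members, lists and tests were chosen with earlier results of these data known. The filter was filterByExpr of edgeR 4.0.16 (minimum count 10, minimum total 15, 13729 genes left), with TMM factors of 0.968 to 1.03. A robust quasi-likelihood model of the 5 groups was fitted over the 20 libraries in R 4.3.3, with a common biological coefficient of variation of 12.5% and 15 residual degrees of freedom. It gave two-sided F-tests adjusted by Benjamini-Hochberg within each of 9 comparisons. SE is the log2 fold change divided by the root of F, and intervals are 95%. Log2 CPM used a prior count of 2. No libraries of a group were copies (chi-square per degree of freedom 3.05 to 8.76). The steps were tested on simulated data.

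The text names the 10 members in every comparison, up to 4 called genes of each list by smallest p in the high dose or combination against DMSO, the 3 genes most like each member called in the high dose, and MALAT1. Some genes of the lists, counted in the lists' totals, and a motif are not reported here. CASP8, BIK and DIABLO in the closing section, and values of named genes in further comparisons, were picked after their values were seen. Alternatives were other scalings, no filter or 1 CPM in 4 libraries, DESeq2 1.42.0, limma-voom (limma 3.58.1), the compared groups alone, each library left out in turn, and a replicate block. Chosen after seeing the data were a term that sets replicates 1 and 3 apart from 2 and 4, and fits of either pair alone. Replicate numbers come from the labels, which do not say that they pair libraries. Their deviations from group means were correlated, and a comparison was taken as paired if every correlation of same-numbered libraries was over 0.1, which held for the low dose (lowest 0.144), prexasertib (0.157), high against low dose (0.110), and the combination against prexasertib (0.115), the low dose (0.144) and the high dose (0.172).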

Additional observations from a re-analysis of the deposited data

Results flagged for a closer look

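Of 50 sets of 4 libraries (10 genes in 5 groups), 2 had a library far from the other 3 by Dixon's 95% value for the gap over the range; chance gives about 1 in 20. BAK1 measured 9.43 CPM in high-dose replicate 3, above 6.31 to 6.84 CPM in the other 3. BCL2L1 measured 23.8 CPM in prexasertib replicate 3, below 27.2 to 27.4 CPM in the other 3. Neither gene was called in any comparison of all 20 libraries. The response to prexasertib was compared with and without Dyngo-4a, taking the combination to hold the low dose and 2 nM. In the main fit BBC3 was the 1 gene of the set past the threshold. For BBC3 the combination exceeded the sum of both agents by 1.21 ± 0.22 on the log2 scale (edgeR's quasi-likelihood test of that difference, adjusted p = 0.00474). In the same test PMAIP1 gave 0.60 ± 0.18 (95% interval 0.24 to 0.97) and was not called (adjusted p = 0.260). The fit with a replicate block called PMAIP1 (0.61, adjusted p = 0.00148), though the replicate numbers missed the pairing rule there. The doses within the combination are not given, so both differences may also be ones of dose. Replicates 2 and 4 alone gave 1.33 for BBC3, which was not called (adjusted p = 0.226). The causes were not tested.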

How the results depend on the processing

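Over 1520 planned re-computations of the members' values, 1485 kept their side of the threshold, 11 called values lost it, 24 uncalled values passed it, and 0 called values changed sign. Other scalings, the 1 CPM filter, DESeq2, limma-voom and the compared groups alone moved no member across the threshold. Counts of called members that moved by over 1.5 times were the following. With the replicate block they were 1 for the low dose (0 without it), 1 for prexasertib (0), 4 for the combination against the low dose (2), 5 against the high dose (2) and 2 for the interaction (1). In the same order the block fit called 260, 23, 1149, 4002 and 167 of 13729 tested genes, beside 36, 0, 528, 2816 and 39. Without a low-count filter prexasertib called 1, BBC3 (adjusted p = 0.0161), beside 12 of all 29560 genes tested there. In comparisons where the replicate numbers missed the pairing rule (lowest correlation 0.0271 for the high dose and 0.0274 for the combination, each against DMSO; own number best in 5 of 8, 6 of 8 and, for the interaction, 42 of 48), the block brought in MCL1 in the high dose (-0.19, adjusted p = 0.0214), BCL2 in the combination (-0.42, 0.00329) and PMAIP1 in the interaction (0.61, 0.00148). The block changed no other call of a member than these and those in the report. Leaving out each library, the combination against DMSO called 3 to 6 members, beside 594 to 861 of all tested genes. A term for replicates 1 and 3 gave 4 for the combination against the high dose and 2 for the interaction. It called 3548 and 93 of 13729 tested genes there. Replicates 1 and 3 alone gave 1 for prexasertib and 4 for the combination against the high dose, beside 5 and 1622 of 13818 tested genes. Replicates 2 and 4 alone gave 2 for the combination against DMSO, 1 against the low dose, 1 against the high dose and 0 for the interaction. In the same order they called 221, 143, 1554 and 1 of 13819 tested genes. The cause was not tested, and the subsets hold fewer libraries. BAK1 and HRK are limited by depth, at 17 to 52 and 19 to 207 counts per library.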

Other observations

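Of the 12 listed genes of the death pathway with too few counts to test, CASP8, which encodes the initiator caspase that death receptors activate, averaged 0.133 to 0.473 CPM over the 5 groups. A count of 0 in a single library allows 0.470 to 0.752 CPM (with TMM factors, which the levels of these untested genes do not use). The BH3-only gene BIK had a mean of 0 CPM in 4 groups and 0.0439 CPM in the combination. DIABLO, which encodes SMAC, averaged 0.375 to 1.12 CPM.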
